A study of Mus musculus with 60 samples.

Results

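The histone acetyltransferase genes Kat2a, Kat2b, Kat5, Kat6a, Kat7, Kat8, Ep300 and Crebbp, together with Msl1 and Kansl1, which encode scaffold proteins of the MSL and NSL complexes, were followed through preimplantation development of in vivo and nuclear transfer (NT) mouse embryos. The rows of the expression table were taken by gene symbol, and all 10 genes were found among the 27238 genes of the table. Gene symbols came from a table of Ensembl identifiers, and the rule uses no measured value.

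Histone acetyltransferases move the acetyl group of acetyl-CoA onto lysines of histone tails, which loosens the contact of the tail with DNA and gives bromodomain proteins a place to bind. KAT8 (MOF) is the acetyltransferase of lysine 16 of histone H4; MSL1 scaffolds the MSL complex, in which KAT8 sits, and KANSL1 scaffolds the NSL complex, which places the same enzyme at promoters. EP300 and CREBBP are paralogous coactivators that acetylate histone H3 at enhancers, KAT2A (GCN5) and KAT2B (PCAF) are the alternative catalytic subunits of SAGA and ATAC, KAT5 is the enzyme of the TIP60/NuA4 complex, KAT6A (MOZ) acetylates histone H3, and KAT7 (HBO1) acetylates histones H3 and H4. In the mouse the oocyte supplies the first transcripts of the embryo, the major wave of genome activation falls at the late 2-cell stage, and a transferred somatic nucleus has to pass through that wave with chromatin inherited from its donor cell.

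All samples were on the BDF1 background (C57BL/6 females crossed with DBA2 males). In vivo embryos came from superovulated C57BL/6 females after mating, NTC embryos were made from enucleated BDF1 oocytes and the nuclei of cumulus cells (CCs) of BDF1 females, and NTM embryos from such oocytes and the nuclei of serum-starved, cultured embryonic fibroblasts (MEFs) of BDF1 fetuses. Both NT groups were treated with the histone deacetylase inhibitor Scriptaid around activation and grown in vitro, which the in vivo embryos were not, so the transferred nucleus, the inhibitor and the culture cannot be told apart in any comparison of NT with in vivo embryos. Single embryos chosen by morphology were sequenced at 6 stages (1-cell, 2-cell and 4-cell, then 8-cell, then morula, then blastula), and with CCs and MEFs this made 20 groups of 3 libraries, 60 in all. The comparisons ask whether the genes of the acetylation machinery are switched on and off in NT embryos as in embryos of fertilized eggs, and whether the donor cell matters.

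The values are RPKM, read counts divided by exon length and library size, and tests were made on log2(RPKM + 1), so a fold change of a low gene is understated. The depth was 5294167 to 47830132 reads on genes per library (median 15451428), and a floor of 3 reads, which a count of 0 allows, equals 0.00439 to 0.0397 RPKM for the long Ep300 transcript and 0.0312 to 0.282 RPKM for the short Kat5 transcript. Counting error is the smaller part of the uncertainty, because single-embryo cDNA was amplified without molecular identifiers. Mitochondrial genes took 5.68% to 8.87% of the reads in in vivo 4-cell libraries against 29.6% to 40.4% in NT 4-cell libraries, and 7730 to 7808 genes were above 0 in in vivo blastulas against 11498 to 13568 in NT blastulas. Summed levels of 10 fibroblast markers were 8789 to 11492 RPKM in MEFs and at most 22.3 RPKM in any embryo. The 12 cumulus markers summed to 676 to 1478 RPKM in CCs but also to 496 to 1210 RPKM in MEFs, with Has2 and Cyp19a1 at 0 in all CCs, so this list did not separate the donor cells; it reached at most 8.55 RPKM in embryos. In blastulas the 6 blastocyst markers summed to 243 to 590 RPKM, and the 7 oocyte markers summed to 0 RPKM in in vivo, 0.690 to 17.8 RPKM in NTC and 0.771 to 2.66 RPKM in NTM blastulas. An embryo library holds several cells from the 2-cell stage on, and fewer cells expressing a gene cannot be told apart from less RNA per cell.

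The genes lie on 7 chromosomes of genome build GRCm38 (GENCODE M21). Kat8 spans 7:127912516-127925837 on the plus strand and overlaps Prss8 on the other strand. Msl1 spans 11:98795516-98807859 (plus strand, overlapping Casc3 and Gm12359), and Kansl1 spans 11:104333229-104468861 on the minus strand. Ep300 lies at 15:81585351-81652077 (plus strand, around Gm22067) and Crebbp at 16:4081328-4213997 (minus strand, overlapping Gm37186). Kat2a lies at 11:100704746-100712465 on the minus strand, Kat2b at 17:53566861-53672720 on the plus strand and Kat7 at 11:95274259-95310246 on the minus strand. Kat5 is at 19:5603014-5610237 on the minus strand beside the overlapping Rnaseh2c, and Kat6a is at 8:22859535-22943259 on the plus strand. Whether reads were counted by strand is not given in the sources used here, so values of genes with an overlapping partner may hold reads of that partner.

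Kat8 and Msl1, the enzyme and the scaffold of one complex, went in opposite directions when the genome of in vivo embryos was activated, and the bases before their starts are shown for that reason (RefSeq, GRCm38.p6, plus strand, 5' to 3', chr7:127912267-127912515 and chr11:98795266-98795515). Capitals mark every match, on either strand, to a GC box (GGGCGG) or a CCAAT box (CCAAT).
Kat8: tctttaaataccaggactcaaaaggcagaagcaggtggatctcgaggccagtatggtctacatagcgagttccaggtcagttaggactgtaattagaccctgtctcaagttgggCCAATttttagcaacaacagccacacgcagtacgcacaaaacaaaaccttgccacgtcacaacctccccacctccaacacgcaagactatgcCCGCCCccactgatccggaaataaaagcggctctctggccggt
Msl1: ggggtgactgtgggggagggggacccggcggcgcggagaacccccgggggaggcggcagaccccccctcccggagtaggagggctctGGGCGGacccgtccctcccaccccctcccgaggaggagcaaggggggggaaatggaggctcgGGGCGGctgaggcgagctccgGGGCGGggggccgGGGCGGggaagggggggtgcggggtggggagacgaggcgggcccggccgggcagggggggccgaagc
Over the 250 bases before the start, Kat8 had 1 GC box and 1 CCAAT box at a GC content of 51.2%, and Msl1 had 4 GC boxes and no CCAAT box at 80.4%. Among all 32851 mouse promoter windows of this length 32.7% held a GC box and 33.8% a CCAAT box, and the median GC content was 52.4%. Windows were found for 9 of the genes (not for Kat6a); 5 held a GC box, 5 a CCAAT box and 1 (Kat5) an E-box (CACGTG, 6.02% of all windows). None of the 9 held CCGGAAG (6.91% of all windows) or TGACGTCA (1.55%). The CpG count ran from 6 in Kat2b to 44 in Crebbp, with a median of 6 over all windows. The RefSeq starts of Ep300 and Crebbp lay 863 and 593 bases inside the annotated genes, so their windows lay within these genes. The windows of Kat2b and Kat5 crossed the annotated start, and the RefSeq start of Kansl1 lay 582 bases before it. For a gene with more than 1 window, the one nearest the annotated start was used. These matches describe the letters and say nothing of binding.

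**Figure D1:**
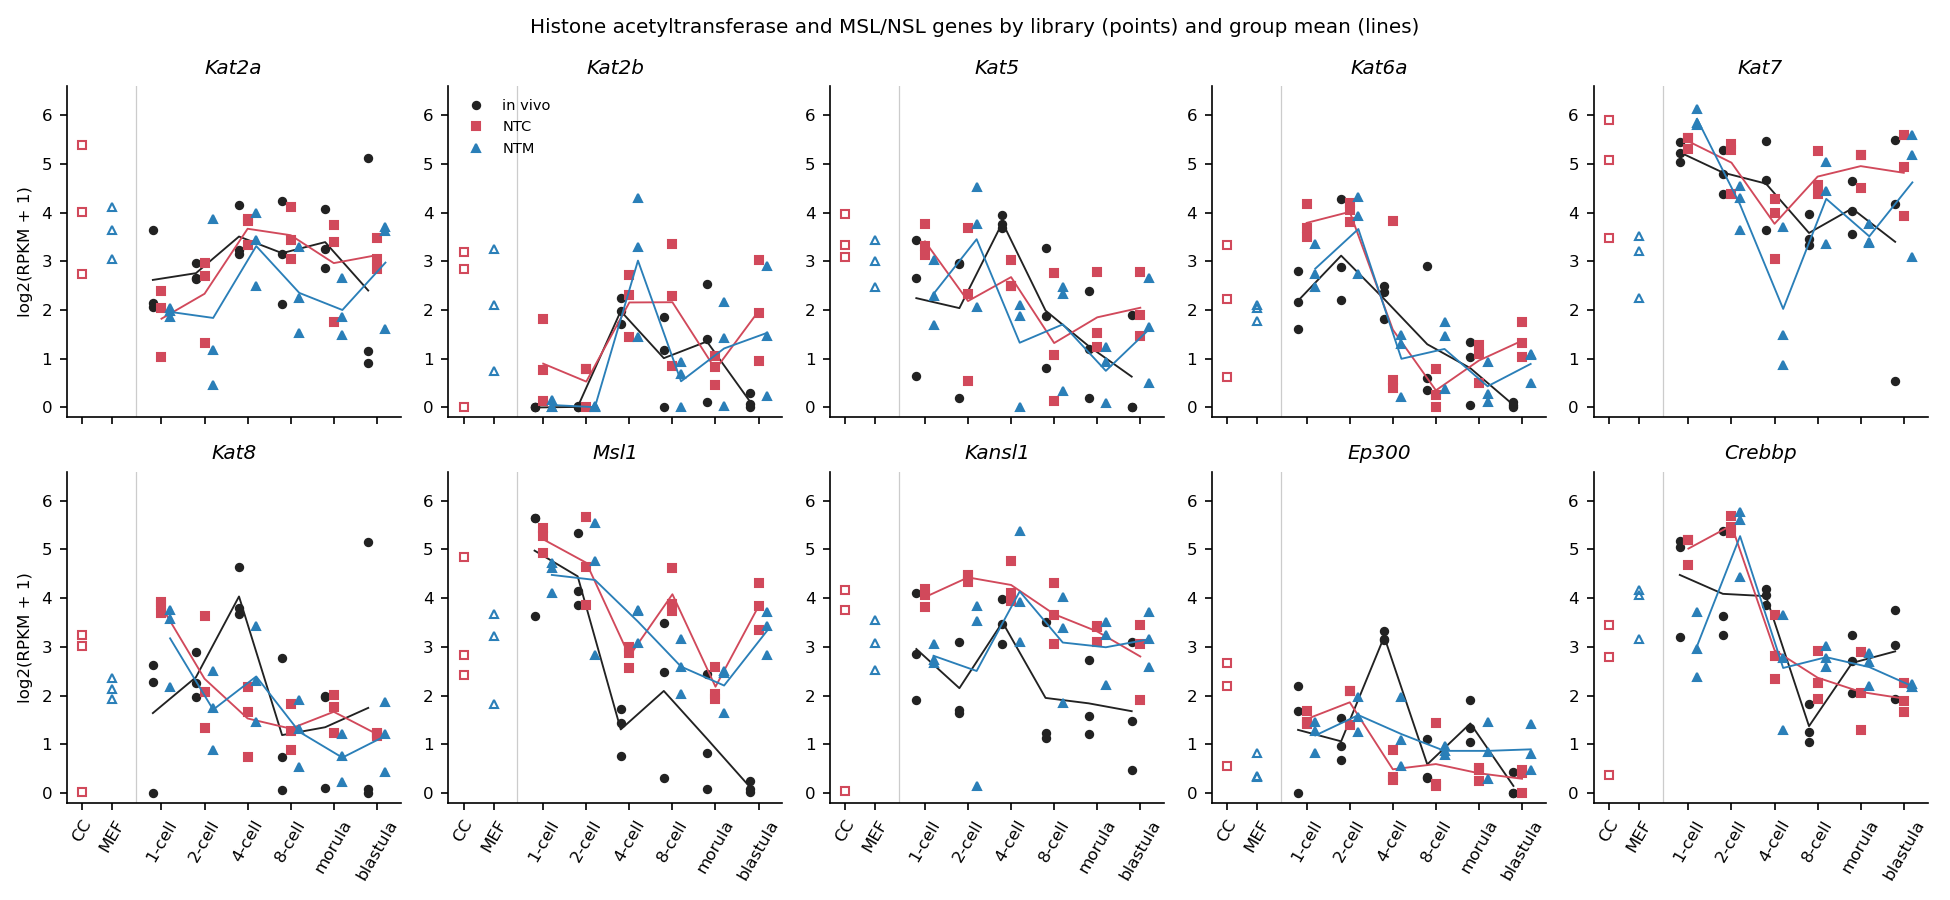
Expression of the 10 genes as log2(RPKM + 1) (y axis) in CC and MEF donor cells (open symbols) and in in vivo (black circles), NTC (red squares) and NTM (blue triangles) embryos from the 1-cell stage to the blastula (x axis). Each point is 1 library, and the lines join the means of 3 libraries per group. Ep300 stands at 7.82 to 9.06 RPKM in in vivo 4-cell embryos and at most 2.91 RPKM in NT 4-cell embryos, and Msl1 is low in in vivo blastulas (at most 0.192 RPKM) and at 6.17 RPKM or more in NT blastulas.

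All 10 genes were expressed somewhere in the series, at different levels and with wide spread between embryos of one group. By the median over the 54 embryo libraries Kat7 was the highest (22 RPKM), followed by Msl1 (9.51), Kansl1 (8.18), Kat2a (6.54) and Crebbp (6.47). Kat5 (3.58), Kat8 (2.60), Kat6a (1.65), Ep300 (0.947) and Kat2b (0.762) followed. Crebbp reached 1 RPKM in 54 of the 54 embryos, while Ep300 did in 26 and Kat2b in 23. Within groups the median SD of log2(RPKM + 1) was smallest for Ep300 (0.38) and largest for Kat5 (1.10), so for most genes neighbours in this order did not differ beyond their spread. The added 1 narrows the SD of low genes, so that of Ep300 does not show that it varied least between embryos. Among the embryo groups the highest median was at the 1-cell or 2-cell stage for Kat6a (NTC 2-cell, 15.5 RPKM), Kat7 (NTM 1-cell, 55.9), Kat8 (NTC 1-cell, 13.5), Msl1 (in vivo 1-cell, 48.9), Kansl1 (NTC 2-cell, 21) and Crebbp (NTM 2-cell, 47.7), and at the 4-cell stage for Kat2a, Kat2b, Kat5 and Ep300.

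Between the 2-cell and the 4-cell stage Kat2b, Kat8 and Ep300 rose and Msl1 fell in in vivo embryos, 4 of 10 genes, where 52.2% of all tested genes changed (31.4% rose, 20.8% fell, and 61.4% had groups without overlap). A gene was counted as changed, or called, at an adjusted p (Benjamini-Hochberg over all tested genes, limma) under 0.05 if its log2 difference was 1 or more in size. In NTC embryos Kat2b rose and Msl1 and Crebbp fell (3 of 10, against 36.6% of all genes, 16.4% rising and 20.1% falling), and in NTM embryos Kat2b rose and Kat6a and Crebbp fell (3 of 10, against 26.4%, 12.1% and 14.3%). Kat2b was the 1 gene of the 10 called higher in each embryo type, but in vivo and NTM 2-cell embryos held almost none of it, so it passed the filter on low values (mean of 0.5 RPKM) only through the 4-cell group. Without that filter none of the NTM calls held. Counts of 4, 3 and 3 of 10 are near these backgrounds and are no result about the genes as a group. The median of all tested genes moved by 0.36 (log2) in vivo and by -0.20 in each NT group.

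Whether the step itself differed was tested with an interaction term in limma. It gave 2 of the 10 genes for NTC set against in vivo (14.3% of all genes) and 1 for NTM set against in vivo (9.91%). Ep300 had a lower change in NTC (-3.52, SE 0.57, adjusted p = 0.00152) and in NTM embryos (-2.54, SE 0.69, adjusted p = 0.0359). For Crebbp the NTC change was also lower (-2.52, SE 0.76, adjusted p = 0.0429), and the NTM difference of -2.66 (SE 1.00) had an adjusted p of 0.121. The interactions of Kat8 (NTC -2.47, SE 0.86, adjusted p = 0.0760) and Kat5 (NTM -3.88, SE 1.22, adjusted p = 0.0662) were not called. Each gained a call without 1 library (Kat8 without NTC 2-cell replicate 2, -2.98; Kat5 without NTM 2-cell replicate 2, -4.58), as did the NTC interactions of Kat6a without NTC 4-cell replicate 3 (-2.64) and of Kansl1 without in vivo 2-cell replicate 1 (-1.99). The Ep300 difference in NTC embryos was called without any 1 of the 12 libraries. In NTM embryos it was lost without NTM 4-cell replicate 2 or 3, NTM 2-cell replicate 1 or 2, any in vivo 4-cell library, or in vivo 2-cell replicate 2 or 3 (-2.22 to -2.57). That of Crebbp held only without NTC 4-cell replicate 2 or in vivo 2-cell replicate 1, and was -2.10 to -2.61 and not called without each of the other 10 libraries. It was also not called with a pseudocount of 0.1 (-2.69), without the low-value filter, with median-ratio scaling (-2.15), with reads outside the mitochondrial genome as the total (-2.15) or with a replicate block. The NTM difference of Ep300 was not called with that pseudocount (-3.58) or either scaling (-2.14 and -2.32).

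**Figure D2:**
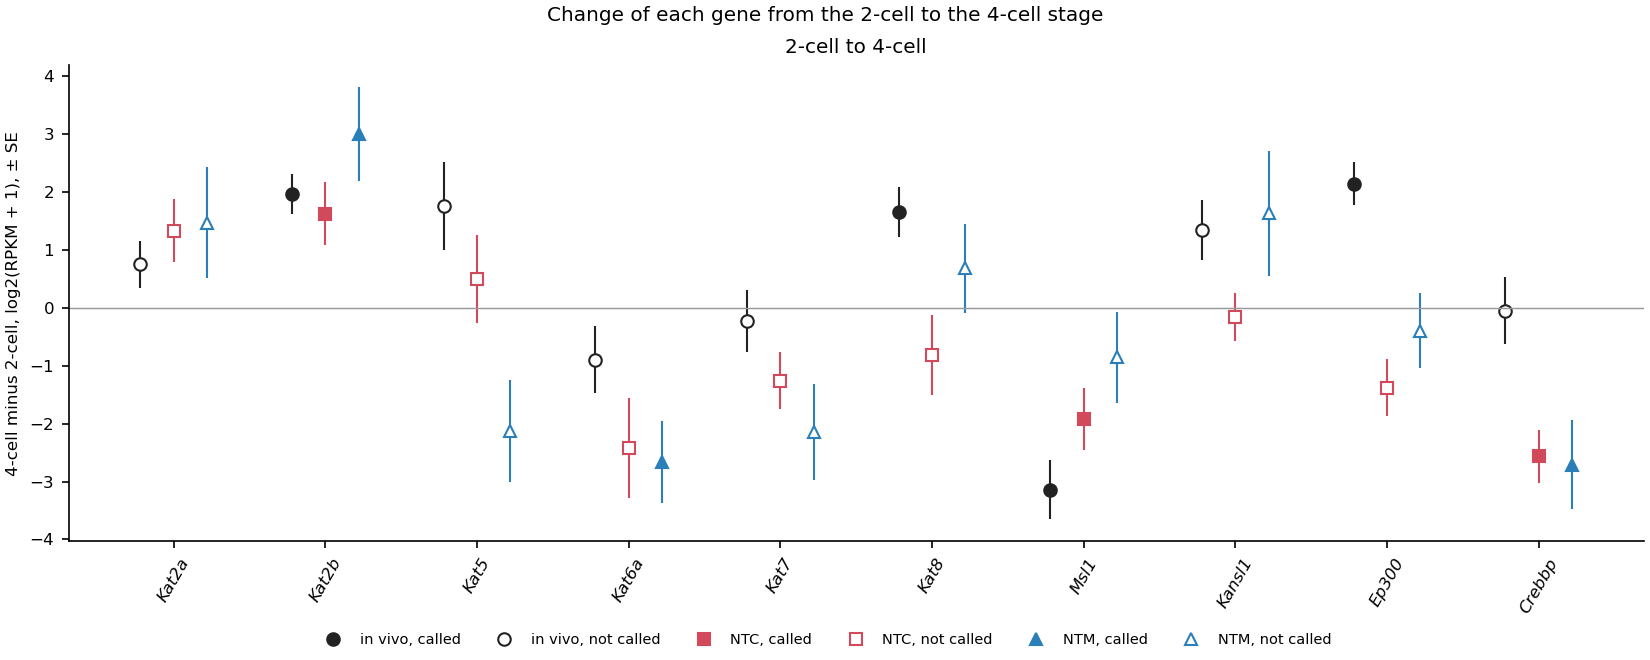
Change of each gene from the 2-cell to the 4-cell stage (y axis, difference of mean log2(RPKM + 1), error bars SE from limma, 3 libraries per group) in in vivo (black circles), NTC (red squares) and NTM (blue triangles) embryos. Filled symbols are genes counted as changed; Ep300 rose by 2.15 in vivo and lies below 0 in both NT groups, while Crebbp fell in both NT groups and stood at -0.05 in vivo.

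Kat8 had its highest in vivo median at the 4-cell stage. It stood at 3.79, 6.45 and 2.93 RPKM in the 3 in vivo 2-cell embryos (replicates 1 to 3) and at 11.8, 23.9 and 12.8 RPKM in the 4-cell embryos. The rise was 1.66 (log2, SE 0.44, adjusted p = 0.0160), and the groups did not overlap; without in vivo 4-cell replicate 2 it was 1.36 and not called, and the call was also lost in a single fit of all 20 groups. At the 8-cell stage the embryos had 0.0483, 0.668 and 5.78 RPKM, a fall of 2.85 (-2.85, SE 0.70, adjusted p = 0.0132), where the median gene fell by 1.05 (-1.05). This call was lost with median-ratio scaling (-1.74) and without replicate 1 (-2.46) or replicate 2 (-2.32) of both stages.

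In NTC embryos the order of the Kat8 levels was different. The 1-cell embryos had 13.5, 14.2 and 12 RPKM, the 2-cell embryos 11.3, 1.53 and 3.20 RPKM, and the 4-cell embryos 2.17, 0.672 and 3.54 RPKM, so all NTC 4-cell embryos lay below every in vivo 4-cell embryo. The difference from in vivo was -2.50 (log2, SE 0.51, adjusted p = 0.00685), it was called without any 1 of the 6 libraries, and the median gene stood at -0.39. NTM 4-cell embryos had 3.90, 1.73 and 9.81 RPKM, also all below the in vivo embryos, but the difference of -1.64 (SE 0.64) had an adjusted p of 0.104. It was called without NTM 4-cell replicate 3 (-2.16), the highest of the NTM embryos. Kat8 did not differ between NTC and NTM 4-cell embryos (NTM minus NTC 0.86, SE 0.88, adjusted p = 0.814), an estimate too wide to show that they were alike.

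After the 8-cell stage Kat8 was low in most embryos and uneven in a few. In vivo blastulas had 0.0661, 34.5 and 0 RPKM (3, 854 and 0 reads), so the group mean rests on 1 embryo. NTC blastulas had 1.26, 1.36 and 1.32 RPKM and NTM blastulas 0.347, 2.67 and 1.32 RPKM, and neither group could be separated from in vivo (-0.54, SE 1.34, and -0.57, SE 1.35). The genes with the most similar course over the 20 group means were Mettl6 (Pearson r = 0.8935), Tacc3 (0.8927) and Calb1 (0.8684) among 13535 genes, given as a description.

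Msl1 fell sharply between the 2-cell and the 4-cell stage in in vivo embryos. The 1-cell embryos had 11.4, 49.4 and 48.9 RPKM, the 2-cell embryos 39.5, 16.8 and 13.4 RPKM, and the 4-cell embryos 1.69, 0.704 and 2.29 RPKM. The change from the 2-cell to the 4-cell stage was a fall (-3.14 on the log2 scale, SE 0.51, adjusted p = 0.00175), without overlap, and it was called without any 1 of the 6 libraries. In vivo 8-cell embryos then had 0.231, 4.64 and 10.2 RPKM, and morulas 0.0579, 0.766 and 4.46 RPKM, so that single later embryos stood above every 4-cell embryo. In NTC embryos the fall, from 13.6, 24.1 and 49.9 RPKM to 6.29, 7.02 and 4.90 RPKM, was also called (-1.92, SE 0.53, adjusted p = 0.0224), a call that was lost without NTC 4-cell replicate 1 or 3 or NTC 2-cell replicate 2 or 3 (-1.45 to -1.96). NTM embryos went from 45.6, 26.1 and 6.08 RPKM to 7.41, 12.4 and 12.3 RPKM (-0.86, SE 0.79, adjusted p = 0.423). The difference between the falls was not called in either NT group (1.23, SE 0.76, adjusted p = 0.336 for NTC, and 2.29, SE 0.97, adjusted p = 0.173 for NTM).

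At the 4-cell stage Msl1 was higher in both NT groups than in vivo, and no NT embryo overlapped an in vivo embryo. Against in vivo the NTC difference was 1.5 (SE 0.45, adjusted p = 0.0376) and the NTM difference 2.21 (SE 0.53, adjusted p = 0.0229), while the median gene was lower by 0.39 in NTC (-0.39) and by 0.69 in NTM embryos (-0.69). Both comparisons use the same 3 in vivo libraries. The NTC call was lost without any 1 of the 6 libraries (1.24 to 1.71) and the NTM call without any 1 of the in vivo libraries (1.95 to 2.42). A replicate block ended both, and the NTC call was also lost without the low-value filter and in a single fit of all 20 groups.

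At the blastula stage Msl1 had the largest difference in size from in vivo embryos among the genes tested, in both NT groups. In vivo blastulas had 0.0586, 0.0215 and 0.192 RPKM (5, 1 and 12 reads), NTC blastulas 13.3, 18.9 and 9.19 RPKM, and NTM blastulas 12.2, 9.83 and 6.17 RPKM. Every NT blastula thus stood far above every in vivo blastula. The NTC difference was 3.71 (SE 0.57, adjusted p = 0.0250), and Msl1 was the 1 gene of 9 tested that was called, where 9.46% of all genes were. For NTM the difference was 3.21 (SE 0.60) with an adjusted p of 0.0507, and 0 of 9 genes were called (limma; 1 had an unadjusted p under 0.05), where 0.746% of all genes were. Msl1 passed the filter on low values only through the NT groups, so the call is no evidence beyond the levels themselves, and without that filter, or with a replicate block, the NTC difference was not called. The NTC difference was 3.47 and not called without NTC blastula replicate 2, and the NTM difference was 3.46 and called without NTM blastula replicate 3. Oocyte markers were also higher in NT blastulas, at 0.690 to 17.8 RPKM (NTC) and 0.771 to 2.66 RPKM (NTM) against 0 RPKM in in vivo blastulas. Msl1 is high in 1-cell embryos, and the part of oocyte RNA in its difference was not tested. The median gene was higher by 0.85 in NTC and 0.86 in NTM blastulas, and the number of genes above 0, given above, moved with the group; its part in the Msl1 difference was not tested.

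Msl1 also rose from the morula (2.82, 3.09 and 4.99 RPKM) to the blastula in NTC embryos, by 1.65 (SE 0.41, adjusted p = 0.0440), the 1 of 9 tested genes called at that step (7.16% of all genes). With no filter on low values, in a single fit of all 20 groups, with a replicate block or without any 1 of the replicate numbers of both stages the call was lost (1.34 to 2.10). Yap1 (r = 0.8950), Atp2a2 (0.8906) and Klhdc10 (0.8892) followed Msl1 most closely over the 20 group means.

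Kansl1 was called at no step between stages. In vivo it went from 7.60, 2.27 and 2.12 RPKM at the 2-cell to 14.9, 10.2 and 7.30 RPKM at the 4-cell stage (1.35, SE 0.52, adjusted p = 0.0616), a change that was called without in vivo 2-cell replicate 1 (1.83). NTC 2-cell embryos had 21.4, 19.2 and 21 RPKM and NTC 4-cell embryos 14.4, 26.3 and 16.1 RPKM (-0.16, SE 0.41, adjusted p = 0.775). NTM 4-cell embryos ranged widely, with 14.2, 7.62 and 40.7 RPKM. Against in vivo embryos Kansl1 was not called at any stage in either NT group. Kank4os (r = 0.7890), Psmd5 (0.7757) and Mdm2 (0.7625) had the most similar course.

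Ep300 was expressed as a pulse at the 4-cell stage in in vivo embryos. The 2-cell embryos had 1.92, 0.6 and 0.945 RPKM, the 4-cell embryos 9.06, 7.91 and 7.82 RPKM, and the 8-cell embryos 0.255, 0.247 and 1.17 RPKM. The rise was 2.15 (log2, SE 0.37, adjusted p = 0.00244) and the fall 2.62 (-2.62, SE 0.40, adjusted p = 0.00157). The rise was called without any 1 of the 6 libraries, and the fall was called in every alternative, also relative to a median gene that fell by 1.05.

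No rise of Ep300 was called in NT embryos, where both estimates were below 0. NTC embryos had 1.64, 3.26 and 3.27 RPKM at the 2-cell and 0.198, 0.248 and 0.840 RPKM at the 4-cell stage (-1.38, SE 0.50, adjusted p = 0.0584; -1.61 and called without NTC 2-cell replicate 1). NTM embryos had 2.94, 1.95 and 1.40 RPKM and then 2.91, 1.14 and 0.479 RPKM (-0.39, SE 0.65, adjusted p = 0.655). Every NT 4-cell embryo was below every in vivo 4-cell embryo. The difference from in vivo was -2.72 in NTC (SE 0.43, adjusted p = 0.00202) and -2.00 in NTM embryos (SE 0.55, adjusted p = 0.0376). Ep300 averaged 0.429 RPKM in NTC 4-cell embryos, under the filter on low values. For NTC it passed that filter only through the in vivo group here, and only through the 2-cell group at the step. Its NTC calls are thus no evidence beyond the levels themselves. Leaving out any 1 library kept the NTC call, whereas the NTM call was kept only without NTM 4-cell replicate 1 and was lost without any of the other 5 libraries (-1.68 to -2.03). With reads outside the mitochondrial genome as the total the NTM value of Ep300 was -1.71 and not called, and the call was also lost with a pseudocount of 0.1 (-2.69), without the low-value filter, with median-ratio scaling (-1.37) and with a replicate block.

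Crebbp, the paralogue of Ep300, had a different course. In vivo it went from 40.4, 8.54 and 11.5 RPKM at the 2-cell to 15.8, 13.5 and 17.4 RPKM at the 4-cell stage (-0.05, SE 0.58, adjusted p = 0.948). It then fell to 1.07, 2.53 and 1.37 RPKM at the 8-cell stage (-2.67, SE 0.38, adjusted p = 0.00118). NTC embryos fell already from the 2-cell (39.4, 50.4 and 43.1 RPKM) to the 4-cell stage (4.05, 11.6 and 5.99 RPKM), by 2.56 (-2.56, SE 0.46, adjusted p = 0.00330). NTM embryos fell from 53.8, 47.7 and 20.7 RPKM to 5.80, 1.44 and 11.6 RPKM, by 2.71 (-2.71, SE 0.77, adjusted p = 0.0319), a call that was lost without NTM 4-cell replicate 1 or 2 or any NTM 2-cell library (-2.07 to -3.12), without the low-value filter and with reads outside the mitochondrial genome as the total (-2.41). All NT 4-cell embryos were below all in vivo 4-cell embryos, but the differences of -1.11 (NTC, SE 0.43, adjusted p = 0.0872) and -1.47 (NTM, SE 0.66, adjusted p = 0.149) were not called. Each was called without 1 library, NTC 4-cell replicate 2 (-1.47) and NTM 4-cell replicate 3 (-2.02).

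The 4 genes that fell from the 4-cell to the 8-cell stage in vivo were Kat5, Kat8, Ep300 and Crebbp (4 of 10, where 39.3% of all genes fell and 43.7% changed). In NTC and NTM embryos 0 of 10 genes changed at this step (limma; 1 and 2 genes had an unadjusted p under 0.05), where 0.0564% and 0.363% of all genes did. A test of the difference between these steps was not made.

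**Figure D3:**
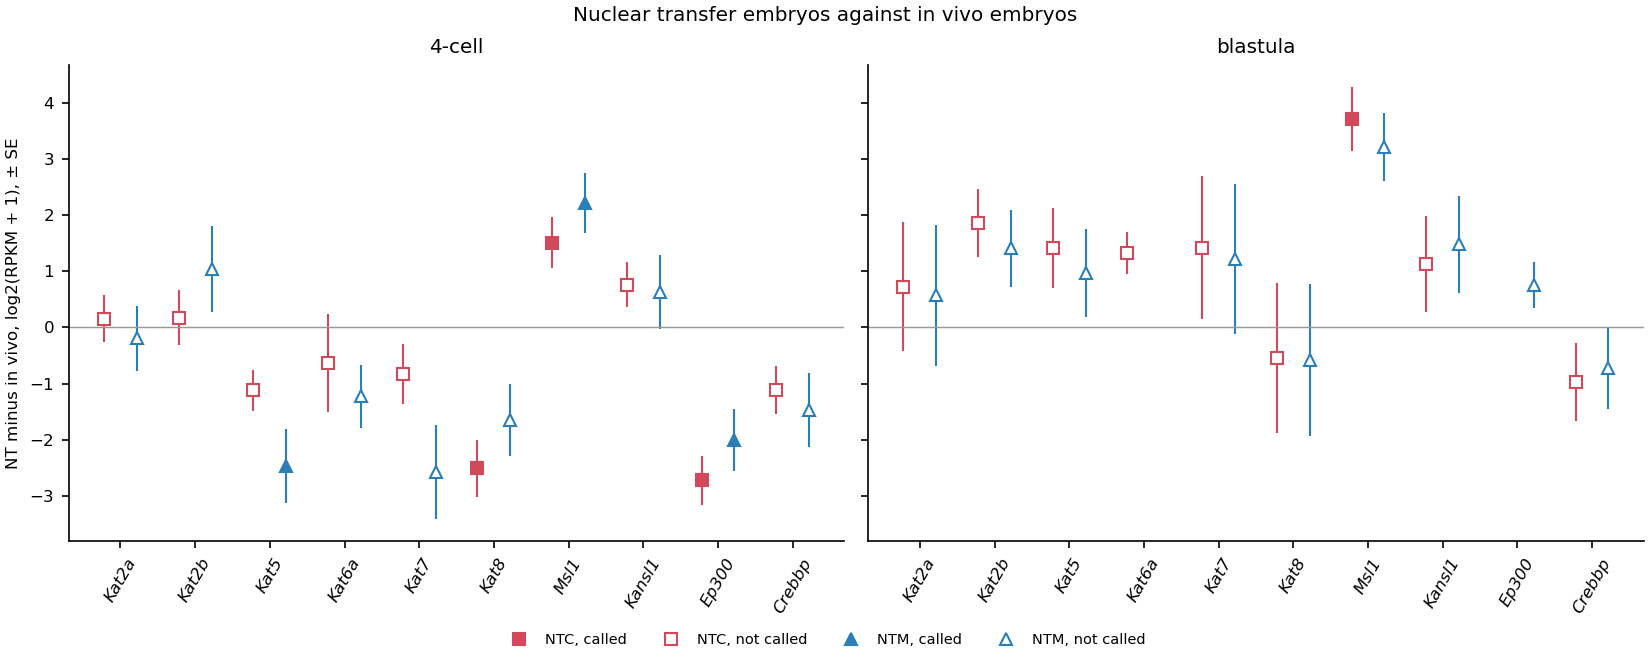
Difference of NTC (red squares) and NTM (blue triangles) embryos from in vivo embryos of the same stage (y axis, difference of mean log2(RPKM + 1), error bars SE from limma, 3 libraries per group) at the 4-cell stage (left) and in blastulas (right). Filled symbols are genes counted as different, and genes below the filter on low values are left out. At the 4-cell stage Ep300 lies at -2.72 and -2.00 and Msl1 at 1.5 and 2.21, and in blastulas Msl1 lies at 3.71 and 3.21.

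Against in vivo 4-cell embryos, 1 gene was higher and 2 were lower in each NT group, where 27.8% of all genes differed in NTC (7.40% higher and 20.4% lower) and 21.1% in NTM embryos (3.33% and 17.8%). The mitochondrial share of reads differed between the same groups, as given above; with reads outside the mitochondrial genome as the total, Ep300 and Kat8 were still called lower in NTC embryos and Msl1 higher in both NT groups, and Ep300 and Kat5 were not called in NTM embryos. Groups did not overlap for 43.9% of all genes in NTC and 41.1% in NTM embryos. Msl1 was the higher gene in both, and Ep300 was lower in both, together with Kat8 in NTC and Kat5 in NTM embryos. Both comparisons share the in vivo libraries and are not independent. Kat6a was called lower in NTC without NTC 4-cell replicate 3 (-1.74), against -0.63 with it. At the 1-cell, 2-cell, 8-cell and morula stages 0 of the tested genes were called in the 8 comparisons with in vivo embryos (limma; 11 of 77 values had an unadjusted p under 0.05), where 1.16%, 0.152%, 1.46% and 0.0321% of all genes were called in NTC and 1.28%, 0.141%, 2.02% and 0.168% in NTM embryos.

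Kat2b, which can take the place of Kat2a in SAGA and ATAC, had little or no RNA before the 4-cell stage in in vivo and NTM embryos. It was listed at 0 in all 3 in vivo 1-cell embryos and stood at 0, 0 and 0.0249 RPKM in 2-cell embryos, against 2.94, 3.76 and 2.27 RPKM in 4-cell embryos (1.97, SE 0.35, adjusted p = 0.00272, called without any 1 of the 6 libraries). NTM embryos went from 0, 0.0149 and 0 RPKM to 1.71, 18.8 and 8.83 RPKM (3.01, SE 0.81, adjusted p = 0.0253), and NTC embryos from 0, 0.739 and 0.737 RPKM to 5.58, 1.73 and 3.93 RPKM (1.62, SE 0.55, adjusted p = 0.0460). In vivo no 4-cell embryo overlapped a 2-cell embryo, where 61.4% of all tested genes had groups without overlap. At the 2-cell stage Kat2b averaged 0.00829 RPKM in vivo, 0.492 RPKM in NTC and 0.00498 RPKM in NTM embryos, under the filter on low values. In each type it passed that filter only through the 4-cell group, so these calls are no evidence beyond the levels themselves. The NT calls depend on single libraries: the NTC call was kept only without NTC 4-cell replicate 2 (1.34 to 1.76 without each of the others) and the NTM call only without NTM 4-cell replicate 1 (2.36 to 3.02). Both were lost without the low-value filter, and the NTC call also with a pseudocount of 0.1 (3.07), with median-ratio scaling (1.5), in a single fit of all 20 groups and with a replicate block.

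Kat2a was present at every stage and was not called at any step between stages or against in vivo embryos. At the 2-cell stage it had 5.22, 6.82 and 5.36 RPKM in vivo, and at the 4-cell stage 8.35, 16.9 and 7.83 RPKM (0.75, SE 0.41, adjusted p = 0.156). NTC embryos went from 1.51, 6.83 and 5.54 to 13.5, 9.05 and 13.1 RPKM (1.33, SE 0.55, adjusted p = 0.0894). In in vivo blastulas it stood at 0.896, 1.24 and 33.7 RPKM. The embryo with 33.7 RPKM of Kat2a was not the one with 34.5 RPKM of Kat8, so different embryos carried the high values of these genes.

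Kat5, the catalytic subunit of TIP60, had its highest in vivo median at the 4-cell stage, with 11.9, 12.6 and 14.4 RPKM after 6.85, 6.70 and 0.151 RPKM at the 2-cell stage (1.76, SE 0.76, adjusted p = 0.0879). At the 8-cell stage it had 0.765, 2.67 and 8.67 RPKM, a fall of 1.81 (-1.81, SE 0.61, adjusted p = 0.0428). With median-ratio scaling this fall was 0.59 in size (-0.59), not called, and it was also lost with 4 other settings or without replicate 1 or 2 of both stages (-1.28 and -1.77). NTM 4-cell embryos had 3.29, 0 and 2.70 RPKM, lower than in vivo by 2.47 (-2.47, SE 0.66, adjusted p = 0.0338), and NTC 4-cell embryos had 7.15, 4.67 and 4.66 RPKM (-1.12, SE 0.37, adjusted p = 0.0512). The NTM call was lost without any 1 in vivo library (-2.39 to -2.52), with a pseudocount of 0.1 (-3.72), without the low-value filter and with either scaling (-1.93 and -2.24), and the NTC difference was called without NTC 4-cell replicate 1 (-1.30). The exon length that turns the deposited Kat5 values into whole reads is 2008 bases rather than the 3509 annotated, so its level per length is that of a shorter gene model.

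Kat6a, the enzyme of the MOZ complex, fell from the 2-cell to the 4-cell stage in NTM embryos. In NTC embryos it stood at 17.4, 15.5 and 13 RPKM at the 2-cell and at 0.320, 0.487 and 13.1 RPKM at the 4-cell stage, so that 1 embryo kept the 2-cell level (-2.42, SE 0.87, adjusted p = 0.0580; -3.53 and called without NTC 4-cell replicate 3). In NTM embryos it fell from 14.2, 19.1 and 5.67 to 1.79, 0.167 and 1.45 RPKM (-2.66, SE 0.71, adjusted p = 0.0247), a call lost without NTM 4-cell replicate 2 or 3 or NTM 2-cell replicate 1 or 2 (-2.28 to -2.81), or without the low-value filter. In vivo it had 18.4, 3.59 and 6.34 RPKM and then 4.63, 2.53 and 4.14 RPKM (-0.89, SE 0.58, adjusted p = 0.224). By the blastula Kat6a was at most 0.0764 RPKM in vivo and at 0.416 to 2.38 RPKM in NT embryos. The NTC difference of 1.32 (SE 0.37) had an adjusted p of 0.0653 and was called without NTC blastula replicate 1 (1.48). Kat6a averaged 0.037 RPKM in in vivo blastulas and passed the filter on low values only through the NTC group. That call is thus no evidence beyond the levels themselves. For NTM against in vivo blastulas Kat6a was below the filter and was not tested.

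Kat7, the enzyme of the HBO1 complex, was abundant at the 1-cell stage, with 31.7, 36.6 and 42.8 RPKM in vivo, 45.5, 38.7 and 45.6 RPKM in NTC and 69.4, 55.9 and 55.1 RPKM in NTM embryos. It then fell in NTM embryos to 18.8, 22.3 and 11.5 RPKM at the 2-cell stage (-1.76, SE 0.38, adjusted p = 0.0253), while Crebbp rose there from 4.24, 12.1 and 6.74 RPKM (2.26, SE 0.54, adjusted p = 0.0350). These were the 2 of 9 genes called at that step in NTM embryos (9.40% of all genes). Leaving out any 1 replicate number of both stages ended both calls (-1.56 to -2.00 for Kat7, 1.69 to 2.64 for Crebbp), as did median-ratio scaling (-1.34) or a single fit of all 20 groups for Kat7 and no low-value filter for Crebbp. By the 4-cell stage NTM embryos had 1.80, 0.832 and 12.1 RPKM of Kat7 (-2.14 from the 2-cell stage, SE 0.83, adjusted p = 0.0926; -2.99 and called without NTM 4-cell replicate 3) against 11.4, 43.6 and 24.5 RPKM in vivo (-2.57, SE 0.84, adjusted p = 0.0644); this difference was called without NTM 4-cell replicate 3 (-3.42), the embryo that overlapped the in vivo range. The 9 other steps had 0 calls among the tested genes (limma; 6 of 87 values at an unadjusted p under 0.05). Of all genes 0% changed from the 1-cell to the 2-cell stage in vivo and 13.5% in NTC, 0.0564% (NTC) and 0.363% (NTM) from the 4-cell to the 8-cell stage, 0.0116% (in vivo), 0% (NTC) and 0% (NTM) from the 8-cell stage to the morula, and 0.801% (in vivo) and 4.22% (NTM) from the morula to the blastula.

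Crebbp and Kansl1 were lower in NTM than in NTC embryos at the 1-cell stage. MEFs were cultured and serum-starved and CCs were not, so donor cell type and donor culture cannot be told apart. The libraries of these groups also differed in other ways. The 7 oocyte markers summed to 4061 to 4591 RPKM in NTM and 2316 to 2711 RPKM in NTC 1-cell embryos. Genes above 0 numbered 12097 to 12346 in NTM and 14021 to 14270 in NTC. Mitochondrial genes took 2.92% to 4.19% and 4.78% to 6.78% of the reads. The part of these differences was not tested. Crebbp stood at 24.5, 35.6 and 35.4 RPKM in NTC and at 4.24, 12.1 and 6.74 RPKM in NTM 1-cell embryos (NTM minus NTC -2.00, SE 0.36, adjusted p = 0.00534), and Kansl1 at 15.7, 13 and 17.3 against 5.39, 7.28 and 5.60 RPKM (-1.20, SE 0.26, adjusted p = 0.0121). Both pairs of groups were without overlap, and these were 2 of 10 genes, where 19.8% of all genes differed and 42.1% had groups without overlap. The Crebbp call was kept without any 1 of the 6 libraries, and that of Kansl1 was lost without NTC 1-cell replicate 3 (-1.12) and in a single fit of all 20 groups. Kat5 (-1.08, SE 0.39), Kat6a (-0.94, SE 0.33) and Msl1 (-0.73, SE 0.25) were also lower in every NTM than in every NTC 1-cell embryo, with adjusted p of 0.0792, 0.0695 and 0.0650, and Kat7 (0.46, SE 0.19, adjusted p = 0.110) was higher in every one. Kat5 was called without NTM 1-cell replicate 3 (-1.42) and Kat6a without NTM 1-cell replicate 2 (-1.19). From the 2-cell stage to the blastula 0 of the tested genes differed between NTM and NTC embryos (limma; 4 of 49 values at an unadjusted p under 0.05), where 0% did (0.0507% at the 8-cell stage).

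Between MEFs and CCs themselves 0 of 10 genes were called (limma; 1 at an unadjusted p under 0.05), where 6.29% of all genes were. The spread between CC libraries was wide: Kansl1 had 0.0234, 17.1 and 12.6 RPKM, Kat8 7.15, 0.0109 and 8.52 RPKM, Kat2b 6.17, 0 and 8.08 RPKM, and Crebbp 0.3, 5.91 and 9.86 RPKM. Kansl1 and Crebbp were lowest in CC replicate 1, and Kat8 and Kat2b in CC replicate 2. All 6 donor libraries had at least 31558140 reads on genes. In MEFs Crebbp had 15.6, 17.0 and 7.96 RPKM (MEF minus CC 1.59, SE 0.88, adjusted p = 0.384), so the sign was opposite to that between NTM and NTC 1-cell embryos. Against their donor cells, Crebbp was higher in NTC 1-cell embryos (2.81, SE 0.82, adjusted p = 0.0310), 1 of 10 genes where 50.0% of all genes differed. In NTM 1-cell embryos Kat7 (2.94, SE 0.39, adjusted p = 0.000718) and Msl1 (1.57, SE 0.52, adjusted p = 0.0385) were higher than in MEFs and Kat2a (-1.64, SE 0.36, adjusted p = 0.00716) and Kat2b (-1.99, SE 0.64, adjusted p = 0.0349) lower, 4 of 10 genes where 55.2% of all genes differed. Kat2b averaged 0.0371 RPKM in NTM 1-cell embryos and passed the filter on low values only through MEFs. Its call is no evidence beyond the levels themselves.

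NTC blastulas had no called difference from CCs among the 10 genes (0; limma; 1 had an unadjusted p under 0.05), where 24.2% of all genes differed, and NTM blastulas had 1, a lower Crebbp (-1.60, SE 0.46, adjusted p = 0.0297), where 30.8% did. Of the 6 calls between NT embryos and donor cells only that of Kat7 was called under every alternative. Leaving out 1 replicate number of both groups ended the others: Crebbp in NTC 1-cell embryos without replicate 2 (3.02) or 3 (3.35), Kat2a without replicate 3 (-1.66), Kat2b without replicate 1 (-1.36) or 3 (-1.93), Msl1 without any of the 3 (0.90 to 1.92) and Crebbp in NTM blastulas without replicate 1 (-1.46) or 2 (-1.41).

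Subunits and partners of the same complexes were counted at the 2-cell to 4-cell step, with Trrap, Meaf6 and Kat14 in more than 1 list. Of all tested genes 31.4% rose and 20.8% fell at the in vivo step, 16.4% rose and 20.1% fell at the NTC step, and for NTM embryos 12.1% rose and 14.3% fell. No difference between embryo types was tested for a list. Ranges given for the lists are the counts obtained on leaving out each replicate number of both stages in turn, in the order in vivo, NTC, NTM. The genes named were, in each list, up to 4 with the largest called change in vivo. That choice favours a difference from the same in vivo 4-cell libraries, so their NT values are descriptions and no independent evidence. In vivo 10 of 22 tested SAGA and ATAC subunits rose and 1 fell, against 5 and 1 of 21 in NTC and 4 and 1 of 21 in NTM embryos; the list medians were 1.24, 0.70 and 0.34, where all genes had 0.36, -0.20 and -0.20. The number that rose ranged over 6 to 8, 2 to 3 and 0 to 3. Usp22, the SAGA deubiquitinase, had a median of 1.65 RPKM in in vivo 2-cell and 60.5 RPKM in 4-cell embryos (4.73, SE 0.56), but 1.06 and 4.19 RPKM in NTC embryos (1.54, SE 0.50, adjusted p = 0.0413). At the 4-cell stage it was lower in NTC than in in vivo embryos (-3.51, SE 0.36, adjusted p = 0.000211), and the NTM difference of -3.18 (SE 1.03) had an adjusted p of 0.0619. Atxn7l3, its adaptor, rose in all 3 embryo types (3.03, 3.07 and 4.15, in the order in vivo, NTC, NTM). Its 2-cell median was 0 RPKM in vivo and 0.0371 RPKM in NTM embryos. In these types Atxn7l3 passed the low-value filter only through the 4-cell group, so those calls are no evidence beyond the levels themselves. Tada2a, an adaptor of the KAT2A module, rose in vivo (4.46) and in NTM embryos (3.97), with 2.26 in NTC embryos (adjusted p = 0.0549). The same limit holds for the NTM call of Tada2a, which was at most 0.0489 RPKM in NTM 2-cell embryos. Taf6l rose in vivo (2.73), with 0.18 and 0.67 in NTC and NTM embryos, where no change was called.

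Among 9 other MSL and NSL subunits 4 rose and 2 fell in vivo, 2 rose and 1 fell in NTC, and 1 rose and 0 fell in NTM embryos. The number that rose ranged over 2 to 4 and 0 to 2 in the first pair of types, and the 1 NTM call was lost each time. Msl2, the ubiquitin ligase of the MSL complex, went with its partner Msl1 in vivo, from a median of 26.6 to 2.35 RPKM (-3.13, SE 0.48, adjusted p = 0.00140). In NTC embryos the medians were 25.2 and 27.3 RPKM (0.10, SE 0.42, adjusted p = 0.860) and in NTM embryos 22.5 and 16.9 RPKM (-0.18, SE 0.94, adjusted p = 0.891). Compared with in vivo 4-cell embryos Msl2 was higher in NTC 4-cell embryos (log2 difference 2.97, SE 0.49, adjusted p = 0.00239), and in NTM embryos the difference was 2.11 (SE 0.73, adjusted p = 0.0759). The NSL subunit Mcrs1 rose in vivo (3.41, SE 0.47) with 1.02 and 0.89 in NTC and NTM embryos, and at the 4-cell stage it was lower than in vivo in both (-2.82, adjusted p = 0.000122, and -2.28, adjusted p = 0.00368). Hcfc1, a host cell factor in NSL, rose in vivo (2.85) and stood at 0.11 and 0.06 in NTC and NTM embryos, where no change was called. The NSL subunit Kansl3 rose in vivo (2.51) and also in NTC embryos (2.39, adjusted p = 0.0187), with 0.73 in NTM embryos, which was not called. At the 4-cell stage its NTC difference from in vivo was -0.29 (adjusted p = 0.630).

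**Figure D4:**
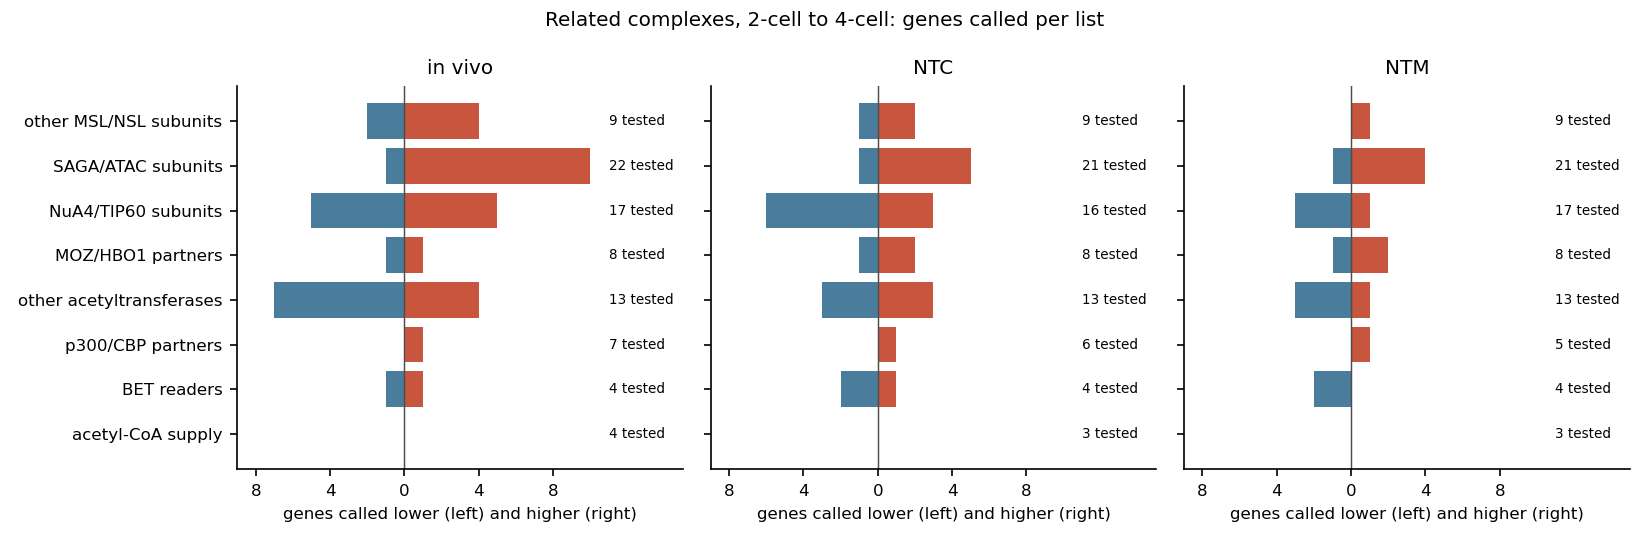
Number of genes called higher (right of 0, red) and lower (left of 0, blue) from the 2-cell to the 4-cell stage in in vivo, NTC and NTM embryos (panels), for 8 lists of genes around the acetyltransferases (y axis), with the number tested beside each bar. SAGA and ATAC subunits have 10 genes higher in vivo, against 5 (NTC) and 4 (NTM). Of all tested genes 31.4%, 16.4% and 12.1% rose in the same order. On leaving out each replicate number the SAGA and ATAC counts were 6 to 8, 2 to 3 and 0 to 3. No difference between embryo types was tested for a list.

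Of the TIP60/NuA4 subunits 5 of 17 rose and 5 fell in vivo, 3 rose and 6 fell of 16 in NTC, and 1 rose and 3 fell of 17 in NTM embryos. The ranges were 2 to 5 rising and 3 falling, 1 rising and 2 to 4 falling, and 0 to 1 rising and 2 to 4 falling. The ATPase gene Ruvbl1 rose in all 3 types (5.65, 2.86 and 4.44), whereas its partner Ruvbl2 rose in vivo (2.98) and stood at -0.03 and 0.76 in NTC and NTM embryos. Mbtd1 fell in all 3 (-2.54, -2.52 and -2.63). Dmap1 rose in vivo (3.80) and in NTC embryos (2.52), with 0.42 in NTM embryos, which was not called. Among 8 tested partners of MOZ and HBO1, 1 rose and 1 fell in vivo and 2 rose and 1 fell in each NT group; Jade3 rose (1.75, 2.32 and 3.49) and Jade2 fell (-2.37, -2.75 and -2.99) in every type. The number that rose ranged over 0 to 1 in vivo and 0 to 2 in NTM embryos. It was 0 each time in NTC embryos, so the NTC rise of Jade3 was lost without any of the 3 replicate numbers. Jade3 had a 2-cell median of 0 RPKM in vivo and 0.0286 RPKM in NTM embryos. Jade2 had a 4-cell median of 0.146 RPKM in NTC and 0.00504 RPKM in NTM embryos. In these types each passed the low-value filter only through its higher group, so those calls are no evidence beyond the levels themselves.

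Of 13 other acetyltransferases 4 rose and 7 fell in vivo, 3 rose and 3 fell in NTC, and 1 rose and 3 fell in NTM embryos. The ranges were 1 to 4 rising and 2 to 5 falling in vivo, and 1 to 2 rising and 0 to 2 falling in each NT group. Clock, the circadian transcription factor with acetyltransferase activity, fell in all 3 (-2.42, -2.49 and -2.39), as did the nuclear receptor coactivator Ncoa2 (-2.50, -1.76 and -3.43). Gtf3c4 rose in vivo (2.69) and in NTC embryos (1.92), with 1.76 in NTM embryos, which was not called. Elp3 fell in vivo (-2.47), with -2.24 and -1.88 in NTC and NTM embryos, neither of them called. Among partners of p300 and CBP, 1 gene rose in each type, of 7 tested in vivo, 6 in NTC and 5 in NTM, and the NTC count was 0 without any of the 3 replicate numbers. Cited1, which binds p300 and CBP, had the largest rise of the genes named here in vivo, from a median of 0.944 to 267.7 RPKM (7.19, SE 0.44, adjusted p = 3.74e-05). It rose in NTM embryos (5.08) and was not called in NTC embryos (2.27, adjusted p = 0.0661). At the 4-cell stage it was lower than in vivo in NTC (-3.54, adjusted p = 0.00197) and NTM embryos (-2.54, adjusted p = 0.00652). In NTM 2-cell embryos Cited1 had a median of 0 RPKM and passed the low-value filter only through the 4-cell group. Its NTM rise is thus no evidence beyond the levels themselves.

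Of the 4 BET proteins, which bind acetylated histones, 1 rose and 1 fell in vivo, 1 rose and 2 fell in NTC, and 0 rose and 2 fell in NTM embryos. The number that fell was 1 in each type whichever replicate number was left out. Brdt, the germ cell member, fell from a median of 434 to 22 RPKM in vivo and fell in all 3 types (-3.99, -3.39 and -4.47). Brd3 rose in vivo (2.55) and in NTC embryos (2.26), with 1.76 in NTM embryos (adjusted p = 0.0685). Of the genes of acetyl-CoA supply 0 were called at this step (limma; 4 tested in vivo and 3 in each NT group, with 0, 0 and 2 at an unadjusted p under 0.05), and 2 of 5 were called higher in NTC than in in vivo blastulas. In NTC blastulas 4 of 15 tested TIP60/NuA4 subunits were also called higher, with a list median of 0.84 against 0.85 for all genes, of which 9.46% were called. All of these blastula calls were lost without any 1 of the 3 replicate numbers.

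The 10 genes did not share one course over the 18 embryo group means. The most similar pairs were Kat6a and Crebbp (Pearson r = 0.83), Kat5 and Kat6a (0.75), Kat2a and Kat2b (0.72) and Kat8 and Ep300 (0.69), and the least similar was Kat2a and Crebbp (-0.51). Kat8 had a correlation of 0.24 with Msl1 and 0.32 with Kansl1. These values describe group means that share their libraries and scaling, and carry no test.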

How the data were processed

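Single embryos and donor cells were sequenced after poly(A) tailing and amplification, without molecular identifiers. The deposited values are RPKM per gene and library. According to the methods the authors filtered the reads, aligned them with TopHat, counted them with HTSeq and expressed them as FPKM. That the total used was the reads on genes was inferred from the values. The submitters' processing notes name Bowtie 0.12.2 and mm8, which differs from the methods, and the build used is therefore not certain. With annotated exon lengths (GENCODE M21) a median of 76.7% of the low non-zero values per library came out as whole reads (tolerance 0.02). High values were left out of this share. Reads and depths given here were recovered in this way. Symbols were found for 27013 of 27238 identifiers.

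All comparisons were fitted with limma 3.58.1 (R 4.3.3; lmFit, eBayes with trend, two-sided) on log2(RPKM + 1) for genes with a mean of at least 0.5 RPKM in the libraries compared, with the 2 groups of a comparison (4 for an interaction) and no covariate. Adjusted p-values are Benjamini-Hochberg values over all tested genes, and a gene was called where the adjusted p was under 0.05 and the log2 difference was 1 or more in size. A gene that passed the low-value filter only through its higher group had to differ, so untested genes are not counted as unchanged. The procedure was tested on simulated data. Tables were handled in Python 3.11.15 (numpy 2.4.6, pandas 2.3.3).

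Groups and replicate numbers follow the labels, and embryos came from several independent experiments. The p-values measure the spread between these libraries. Genes and lists were chosen with earlier results of these data known. All 10 genes are described, and of the other lists up to 4 genes each are named, those with the largest change among the genes called at the in vivo 2-cell to 4-cell step. Genes most like Kat8, Msl1 and Kansl1 are the 3 with the highest Pearson correlation of group means. Alternatives were a pseudocount of 0.1, no low-value filter, median-ratio scaling, scaling to reads outside the mitochondrial genome (16 genes), no fold change threshold, a replicate block, a single fit of all 20 groups, and leaving out each replicate. Promoter windows are from RefSeq (GRCm38.p6). Intervals and floors of 3 reads cover counting error only.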

Additional observations from a re-analysis of the deposited data

Results flagged for a closer look

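The change from the 2-cell to the 4-cell stage differed between embryo types for a pair of genes, by an interaction term in limma with adjusted p-values over all tested genes. Ep300 differed by -3.52 (log2, NTC minus in vivo, SE 0.57, adjusted p = 0.00152) and by -2.54 (NTM minus in vivo, SE 0.69, adjusted p = 0.0359), and Crebbp by -2.52 (NTC minus in vivo, SE 0.76, adjusted p = 0.0429). The in vivo libraries are shared by these comparisons. The share of mitochondrial reads also differed, 5.68% to 8.87% in in vivo and 29.6% to 40.4% in NT 4-cell libraries. With reads outside the mitochondrial genome as the total, the NTC difference of Ep300 was called, whereas that of Ep300 in NTM (-2.32) and that of Crebbp in NTC embryos (-2.15) were not. The Ep300 difference in NTM embryos was also not called with a pseudocount of 0.1 (-3.58) or median-ratio scaling (-2.14), or without any 1 of most of the 12 libraries, as listed above. That of Ep300 in NTC embryos was lost without replicate number 2 of all its groups (-3.16). The Crebbp difference in NTC embryos was also not called with that pseudocount (-2.69), without the low-value filter, with median-ratio scaling (-2.15), with a replicate block, or without each of 10 of the 12 libraries.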

How the results depend on the processing

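No called value changed sign under any alternative. Of 245 values of called results under the alternative settings, 190 were still called and 55 were not, and of 602 values of results that were not called, 24 became called. With libraries left out, 130 of 255 values of called results were still called, and 21 of 869 others became called. Counts of called genes that moved by over 1.5 times were as follows. A pseudocount of 0.1 gave 3 genes in place of 1 for NTC against in vivo blastulas, 1 in place of 3 for NTM against in vivo 4-cell embryos, 1 in place of 0 for NTM against in vivo blastulas, 1 in place of 2 for the NTC and 0 in place of 1 for the NTM interaction. Without the low-value filter the counts were 0 (main 3) for the NTM 2-cell to 4-cell step, 0 (1) for NTC blastulas, 1 (3) for NTM 4-cell embryos, 1 (2) for the NTC interaction, 4 (7) over the 12 other stage steps and 3 (6) over the 4 NT against donor comparisons. Median-ratio scaling gave 5 (3) for the NTC step, 1 (3) for NTM 4-cell embryos, 1 (2) and 0 (1) for the interactions and 4 (7) for the 12 steps. Scaling to reads outside the mitochondrial genome gave 2 (1) for NTC and 1 (0) for NTM blastulas, 1 (3) for NTM 4-cell embryos, and 1 (2) and 0 (1) for the interactions. One fit over all groups gave 5 (3) for the NTM step, 2 (1) for NTC and 1 (0) for NTM blastulas, 1 (2) for NTM against NTC 1-cell embryos, 2 (0) for MEF against CC, 3 (1) for the NTM interaction and 1 (0) over the 8 other NT against in vivo comparisons. The cause was not tested.

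With 1 library, or 1 replicate number, left out, the counts were 3 to 5 for the in vivo, 1 to 3 for the NTC and 0 to 2 for the NTM 2-cell to 4-cell step, 1 to 3 for NTC and 0 to 5 for NTM against in vivo 4-cell embryos, 0 to 2 for NTC and 0 to 1 for NTM against in vivo blastulas, 0 to 3 for NTM against NTC 1-cell embryos, 0 to 0 for MEF against CC, 0 to 3 for the NTC and 0 to 1 for the NTM interaction. They were 2 to 5 over the 12 other steps, 0 to 0 over the 8 other NT against in vivo and the 5 other NTM against NTC comparisons, and 3 to 4 over the 4 donor comparisons. Leaving out 1 replicate number of both groups also ended calls that no single library ended: Kat8 in NTC 4-cell embryos without replicate 2 (-1.81), Crebbp at the NTC step without replicate 3 (-2.51) and in NTM against NTC 1-cell embryos without replicate 3 (-1.88), and the NTC interaction of Ep300 without replicate 2 (-3.16).

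The replicate block gave 0 genes in place of 1 for NTC against in vivo blastulas, 1 in place of 3 for NTM against in vivo 4-cell embryos and 1 in place of 2 for the NTC interaction. Replicate numbers did not pair the samples: correlations of deviations between same-numbered libraries over 38 comparisons ran from -0.181 to 0.119, and in 0 comparisons were all 3 over 0.1.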
